A study of Mus musculus with 8 samples.

Results

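The cytosolic ribosomal protein genes are described here in neurospheres, the floating clusters that neural stem cells form in culture. Members were the protein-coding genes with a mouse symbol of Rpl or Rps and a number, with an optional paralog suffix, plus Rpsa, Rplp0, Rplp1 and Rplp2. Rps6k kinases, Rps19bp1 and pseudogenes were left out. The rule took 80 of the 15538 genes in the table, 31 of the small and 49 of the large ribosomal subunit. Rpl10l and Rpl39l, copies known from the testis, also carry such symbols and were not analysed here.

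The study sequenced polyadenylated RNA of primary neurospheres from embryonic mouse brain, in 4 libraries labelled WT and 4 labelled Phf23-/-. Phf23 encodes a PHD finger protein of chromatin. The labels give no strain, age, design of the allele or treatment, and do not say that the libraries came from separate animals or cultures. The p-values therefore weigh the difference between the groups against the spread of these libraries, and that spread may be technical.

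Each cytosolic ribosome joins a small subunit, which reads the mRNA, to a large subunit, which forms the peptide bonds, and most of its proteins are present in 1 copy per particle. Their mRNAs are abundant, and most begin with a run of pyrimidines, the 5′ terminal oligopyrimidine tract, through which mTORC1 and Larp1 control their translation and stability. In the developing brain, ribosome content is known to be high in cycling progenitors and to fall as neurons mature.

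Recovered reads ran from 15647304 to 19462516 per library. Reads of Phf23 were higher under the label Phf23-/-, at 1481 ± 108 normalised reads (SD, n = 4) against 798 ± 85.4 (SD, n = 4) in WT (limma-trend log2 fold change 0.89 ± 0.106 SE, false discovery rate (FDR) 0.000581). The table therefore does not show loss of the gene's reads, and the sources used here do not describe the allele. All 8 neural stem cell markers listed for the check of the tissue label were measured, with summed normalised reads of 132597 to 142350 in WT and 152810 to 195078 in the libraries labelled Phf23-/-. Vim gave the largest part of these sums, at means of 67797 and 86985, and was not called (limma-trend FDR 0.0633). Fabp7 was called higher (log2 fold change 0.62, limma-trend FDR 0.00923), and 0 of the 8 were called lower. The median log2 fold change of the 8 was 0.27. Nes and Slc1a3 had log2 fold changes of -0.11 and -0.0078, so the sums do not show a rise of all 8. Of the defining markers of other cells, 1 of 4 of microglia, 1 of 3 of red cells, 1 of 3 of fibroblasts and 2 of 3 of endothelium were in the table, and none of these 5 genes was called. Markers of the neural lineages also moved, in both directions. Of 4 astrocyte markers 2 rose and 2 fell, with sums of 3059 to 3732 normalised reads in WT and 2268 to 2532 in the libraries labelled Phf23-/-. Aldh1l1, 1 of the 2 that fell, gave the largest part of those sums, at means of 2746 and 1479. Gfap and S100b rose, from 283 to 536 and from 124 to 216 reads. Of 4 oligodendrocyte lineage markers 2 rose and 0 fell, with sums of 15154 to 19960 and 18264 to 19577. Those sums were almost wholly Olig2, which was not called, at means of 16724 and 18057. The 2 that rose were Mbp, from 46.2 to 193 reads, and Sox10, from 117 to 288. Of 4 neuron markers 1 rose (Rbfox3) and 1 fell (Map2), with a median log2 fold change of 0.05; their sums of 15156 to 20376 and 9165 to 12034 were almost wholly Map2, at means of 17464 and 10077. The part of these cell types in the values below was not tested.

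Ribosomal protein mRNA took a larger part of the reads in the libraries labelled Phf23-/-. The 80 members took 2.98, 3.25, 3.97 and 3.86% of normalised reads in WT replicates 1 to 4, and 5.50, 5.99, 4.46 and 3.76% in Phf23-/- replicates 1 to 4. Replicates 1 and 2 lay far apart between the groups, while replicate 4 of Phf23-/- lay inside the WT range. The means were 3.52 ± 0.478% (SD, n = 4) in WT and 4.93 ± 1.003% (SD, n = 4) in Phf23-/-, a difference of 1.41 percentage points. Within replicates 3 and 4 it was 0.197 points. In these bulk samples, a change in which cells were present and a change in RNA per cell cannot be told apart.

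The balance between the subunits was close in both groups. Reads of small subunit genes divided by reads of large subunit genes gave 0.689 ± 0.0219 (SD, n = 4) in WT and 0.686 ± 0.0165 (SD, n = 4) in Phf23-/-, with overlapping libraries. The groups' means lay closer together than the libraries within either group.

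Gene by gene, 53 of the 80 members rose (limma-trend, FDR under 0.05 over all genes) against 14.8% of all genes called higher. None was called lower, none had a lower value at an unadjusted p under 0.05, and edgeR and DESeq2 on the recovered reads also called 0 lower, with 56 and 65 higher. The share of all genes called by edgeR or DESeq2 was not counted. Called members included 22 of the 31 small subunit genes and 31 of the 49 large subunit genes. The median log2 fold change over the 80 members was 0.56, a 1.48-fold difference, beside 0.00055 over all genes. Among the 79 members averaging 10 or more normalised reads, every log2 fold change was positive, from 0.04 (Rpl4) to 1.15 (Rpl38).

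The order of the libraries was shared across the family. The highest value lay in Phf23-/- replicate 1 or 2 for 79 of these 79 members, and the lowest in WT replicate 1 or 2 for 73. Relative to the mean of the libraries, the members' median log2 level was -0.53, -0.42, -0.06 and -0.11 in WT replicates 1 to 4 and 0.50, 0.62, 0.15 and -0.15 in Phf23-/- replicates 1 to 4. Every Phf23-/- library lay above every WT library for 15 of the 80 members, 18.75%, beside 13.6% of all genes. All 15 were called, and for the other 38 called members the groups overlapped. Only 7 calls held whichever single library was left out: Rpl27a, Rpl28, Rpl36, Rpl41, Rplp2, Rps28 and Rps29. The number called higher fell to 10 without WT replicate 1, 13 without WT replicate 2, 7 without Phf23-/- replicate 1 and 20 without Phf23-/- replicate 2. The share of all genes called was not counted in these fits, so whether the fall was particular to the members cannot be read from them.

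The same 4 libraries also differed in how reads fell on short and long transcripts, and ribosomal protein mRNAs are short. Each gene's log2 level minus its mean over the 8 libraries was set against log2 transcript length, over genes averaging 10 or more. The slope was 0.251, 0.192, 0.0767 and 0.0635 in WT replicates 1 to 4. A positive slope means relatively more reads from long transcripts than in the mean of the 8 libraries. The signs are therefore relative and do not give a library's own dependence on length. In Phf23-/- replicates 1 to 4 the slope was -0.235, -0.301, -0.0877 and 0.0413. The 932 protein-coding genes that are no member and whose transcripts lay between the members' lower and upper quartiles of length had a median log2 fold change of 0.50, and 42.2% of them were called higher. Of these, the 186 with a mean of at least 1000 reads had a median of 0.65, and 80.1% were called higher. The members' median lay below that of these abundant genes of like length.

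The family was next measured with each library's trend on transcript length and GC content subtracted. The members' median log2 fold change was then 0.06, and 6 members were called higher beside 10.2% of all genes, and 2 lower beside 7.12%. Those called higher were Rpl21 (0.47, limma-trend FDR 0.0121), Rplp2 (0.39, FDR 0.0202), Rps3 (0.38, FDR 0.0298), Rpsa (0.34, FDR 0.0285), Rpl22 (0.32, FDR 0.043) and Rpl27a (0.31, FDR 0.00825). The 2 called lower were Rpl26, at -0.26 (FDR 0.0441), and Rps6, at -0.20 (FDR 0.0478). Rpl21, Rpl26, Rpl27a, Rpl28, Rps15a, Rps20 and Rps29 are named because of their values. The values depend on the transcript chosen, which is the longest one linked to RefSeq. For Rps15a, Rps20 and Rpl21 it has 5179, 3706 and 1856 nucleotides, far longer than their coding regions. For Rpl22, Rpsa and Rps3, called higher like Rpl21, it has 2051, 1938 and 1908 nucleotides, beside coding regions of 384, 885 and 729. Rps20 and Rps15a had the highest values, 0.89 and 0.68, without passing (limma-trend FDR 0.0768 and 0.111). On this scale calls were no more frequent among the members than among all genes.

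Replicates 3 and 4, whose slopes lay closer together, gave a median of 0.09 over the members, with 71 of the 79 at a positive log2 fold change. The medians of the 932 non-members of like length and of the abundant 186 were higher there, at 0.15 and 0.22. There 3 members were called higher beside 4.61% of all genes: Rpl27a (0.33, limma-trend FDR 0.0278), Rps28 (0.32, FDR 0.0327) and Rps29 (0.32, FDR 0.032). Rpl22l1 was the 1 member called lower, beside 4.54% of all genes. With so few libraries, the FDRs of this fit rest largely on a variance pooled over genes. Both Phf23-/- libraries lay above both WT libraries for 18 of the 79 members, below for 1, and the groups overlapped for 60, where 24.6% of all genes had the higher arrangement. With the length slope as a covariate in the fit, 0 members were called higher beside 0.65% of all genes, 1 (Rpl22l1) was lower beside 0.431%, and the median was -0.11. The slope and the group largely coincide in these libraries, so the transcript length trend and the genotype label cannot be told apart in the 8 libraries together.

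**Figure D1:**
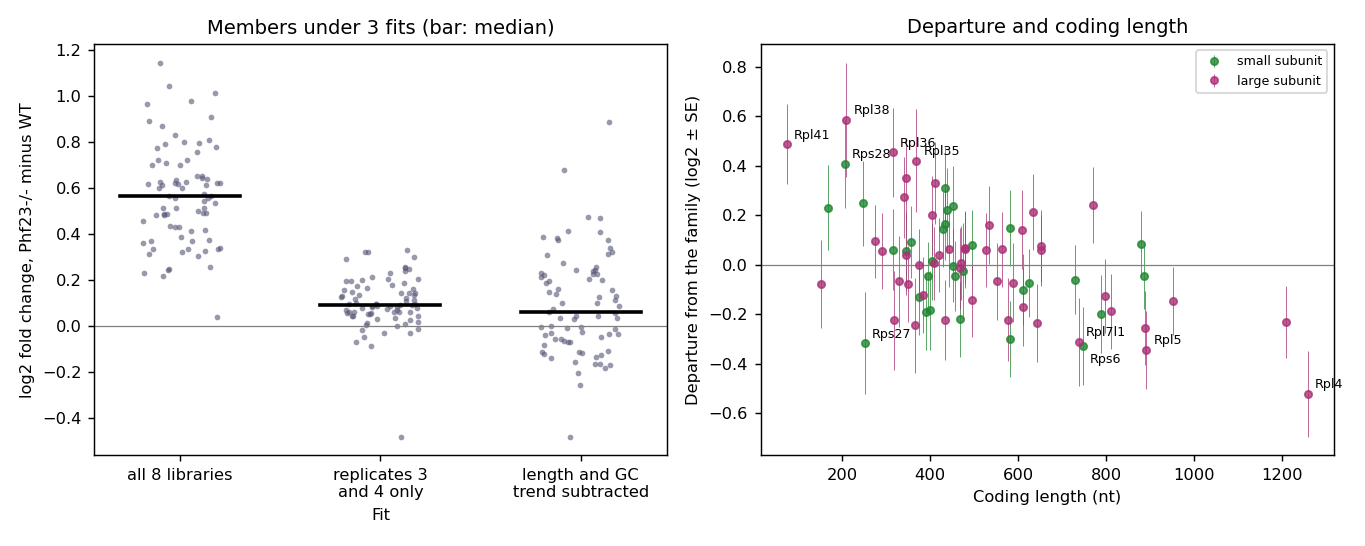
Left, log2 fold change of each of the 79 members in all 8 libraries, in replicates 3 and 4 only, and with the length and GC trend subtracted (points, genes; bars, medians of 0.57, 0.09 and 0.06). Right, departure from the family shift (log2 ± SE) against coding length in nucleotides, where the longest coding regions lie mostly below 0.

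Departures from the shared shift were measured by subtracting, in each library, the median log2 level of the 79 members before the fit. Departures ran from -0.52 to 0.59 on the log2 scale, and 65 of the 79 lay within 0.3 of the family. At FDR under 0.05, Rpl41 was higher than the family and Rpl4 lower. On this scale 0.637% of all genes were called higher and 32% lower, because the family itself had moved against most genes, and an FDR adjusted over the table is lenient when read among the members. Unadjusted, 6 of the 79 members had a p under 0.05.

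Rpl41, on chromosome 10 at 128548114 to 128549305 (minus strand, GRCm38), encodes the smallest protein of the large subunit, with a coding region of 75 nucleotides. Its normalised reads were 5343, 6391, 8672 and 9096 in WT replicates 1 to 4 and 18885, 21660, 11699 and 10239 in Phf23-/- replicates 1 to 4. The groups did not overlap, and Phf23-/- replicates 1 and 2 stood well above all others. The means were 7376 ± 1802 (SD, n = 4) and 15621 ± 5522 (SD, n = 4), a log2 fold change of 1.05 ± 0.235 SE (limma-trend FDR 0.00958). Its departure from the family was 0.49 ± 0.162 (limma-trend FDR 0.0392). The departure passed without WT replicate 4 or Phf23-/- replicate 4, and missed the threshold when any other library was left out (FDR up to 0.123). It was 0.15 with the trend subtracted.

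Rpl38, a large subunit protein known in the mouse for a role in axial skeleton patterning, lies on chromosome 11 at 114668524 to 114672331 (plus strand) and has 210 coding nucleotides. It gave 1320, 1459, 3345 and 3135 reads in WT replicates 1 to 4 and 5363, 6462, 3997 and 3497 in Phf23-/- replicates 1 to 4. The groups did not overlap, but WT replicates 3 and 4 lay just under Phf23-/- replicate 4. The mean rose from 2315 ± 1073 (SD, n = 4) to 4830 ± 1344 (SD, n = 4), 2.09-fold, with a log2 fold change of 1.15 ± 0.303 SE (limma-trend FDR 0.0177). Its departure, 0.59 ± 0.231, was the highest in the family and missed the threshold (FDR 0.0652). In replicates 3 and 4 the log2 fold change was 0.21 (FDR 0.235).

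Rpl36, Rpl35 and Rps28 followed in the order of departures. Rpl36 (large subunit, chromosome 17, 315 coding nucleotides) gave 2406, 2635, 3981 and 4773 reads in WT and 8593, 8169, 5650 and 5052 in Phf23-/-, with no overlap. Its log2 fold change was 1.01 ± 0.224 SE (limma-trend FDR 0.00919) and its departure 0.45 ± 0.179 (FDR 0.0652). With the trend subtracted its log2 fold change was near 0. Rpl35, whose protein sits near the exit of the peptide tunnel, gave 1846, 2463, 4332 and 4298 reads in WT and 7011, 8697, 4987 and 4219 in Phf23-/-. Here Phf23-/- replicate 4 lay below WT replicates 3 and 4. The log2 fold change was 0.98 ± 0.283 SE (limma-trend FDR 0.0236) and the departure 0.42 ± 0.207 (FDR 0.123).

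Rps28, a small subunit protein on chromosome 17 with 207 coding nucleotides, gave 1471, 1297, 2333 and 2373 reads in WT and 3981, 4484, 3214 and 2698 in Phf23-/-. Every Phf23-/- library lay above every WT library, also in replicates 3 and 4. The mean rose from 1869 ± 564 (SD, n = 4) to 3594 ± 793 (SD, n = 4), a log2 fold change of 0.97 ± 0.207 SE (limma-trend FDR 0.00833). Its departure was 0.41 ± 0.181 (FDR 0.0903). All 5 of these genes have coding regions under 400 nucleotides.

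At the other end stood Rpl4, on chromosome 9 at 64173375 to 64178666 (plus strand), which encodes a long protein lining the peptide tunnel, with 1257 coding nucleotides. It gave 16281, 17068, 18188 and 17510 reads in WT and 19796, 17216, 18078 and 16011 in Phf23-/-. The groups overlapped throughout. The means, 17262 ± 800 (SD, n = 4) and 17775 ± 1592 (SD, n = 4), gave a log2 fold change of 0.04 ± 0.1 SE (limma-trend FDR 0.799). Its departure was -0.52 ± 0.174 (FDR 0.0406), with an FDR of 0.00791 to 0.116 when 1 library was left out. The departure missed the threshold without WT replicate 1 or 2 or Phf23-/- replicate 1, 2 or 3.

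Rpl5, Rps6, Rps27 and Rpl7l1 were the next lowest, and none was called in the comparison of all libraries. Rpl5, which binds the 5S ribosomal RNA and with Rpl11 restrains Mdm2, gave 11116 to 12128 reads in WT and 15619, 15193, 12017 and 11132 in Phf23-/-. Its log2 fold change was 0.22 ± 0.121 SE (limma-trend FDR 0.195) and its departure -0.34 ± 0.158 (FDR 0.101). Only Phf23-/- replicates 1 and 2 stood above WT. Rps6, the small subunit protein phosphorylated downstream of mTORC1, gave 10712, 11062, 11709 and 10958 reads in WT and 14800, 14483, 12683 and 10589 in Phf23-/-. Its log2 fold change was 0.23 ± 0.116 SE (limma-trend FDR 0.15) and its departure -0.33 ± 0.158 (FDR 0.115). Rps27 and Rpl7l1 had departures of -0.32 ± 0.207 (FDR 0.232) and -0.31 ± 0.178 (FDR 0.176).

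**Figure D2:**
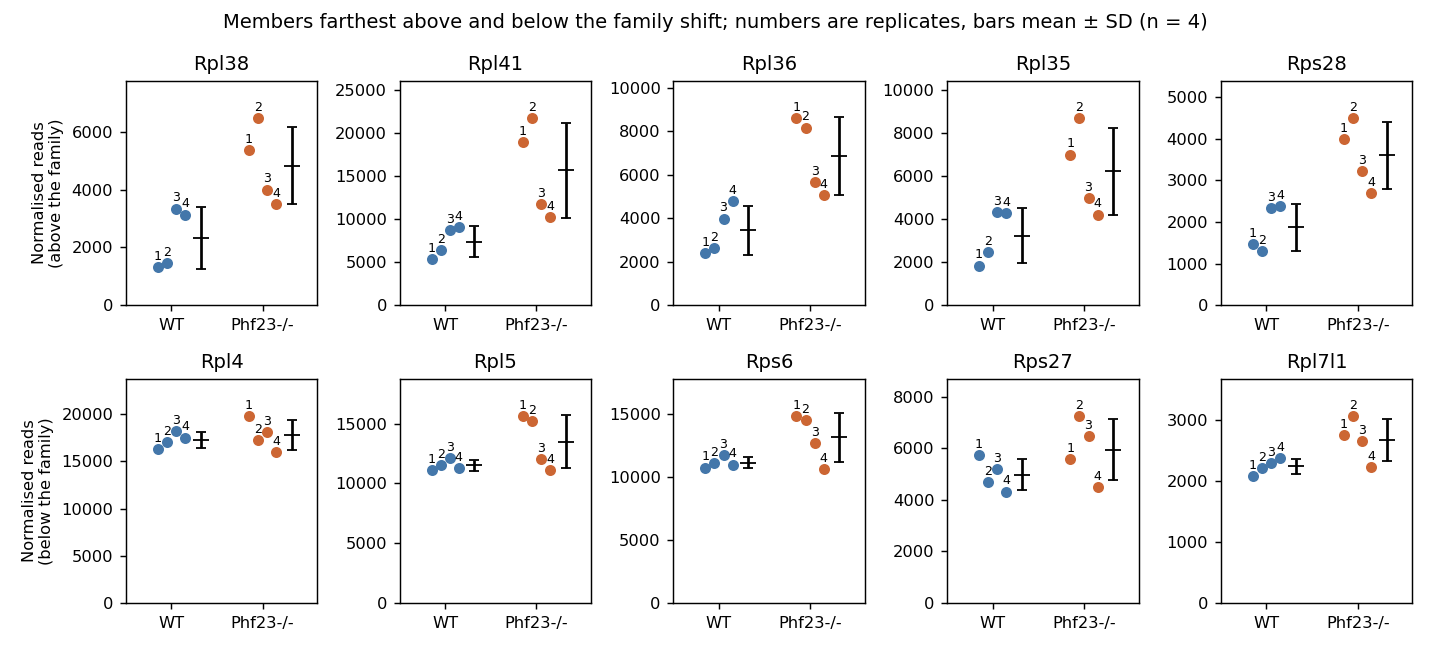
Normalised reads of the 5 members farthest above the family (upper row) and the 5 farthest below it (lower row), by group as labelled; numbers are replicates and bars give the mean ± SD (n = 4). Mean Rpl41 rose from 7376 to 15621, while Rpl4 stayed between 16011 and 19796 in all libraries.

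Across the 79 members, departures went with properties of the transcript. Spearman's rho was -0.41 with coding length, -0.32 with transcript length, 0.52 with GC content and -0.24 with mean level; members share libraries, so these are descriptions. The 27 members with the shortest coding regions (75 to 399 nucleotides) had a median log2 fold change of 0.61 and 18 calls. The 26 of middle length (405 to 564) had 0.62 and 22 calls, and the 26 longest (576 to 1257) had 0.42 and 13 calls. The median departures were 0.05, 0.06 and -0.14. With the trend subtracted, 5 departures were called higher beside 5.44% of all genes (Rpl21, Rpl28, Rplp2, Rps3 and Rpsa) and 2 lower beside 7.21% (Rpl26 and Rps6), so neither Rpl41 nor Rpl4 was among them. These departures also depend on the transcript chosen.

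**Figure D3:**
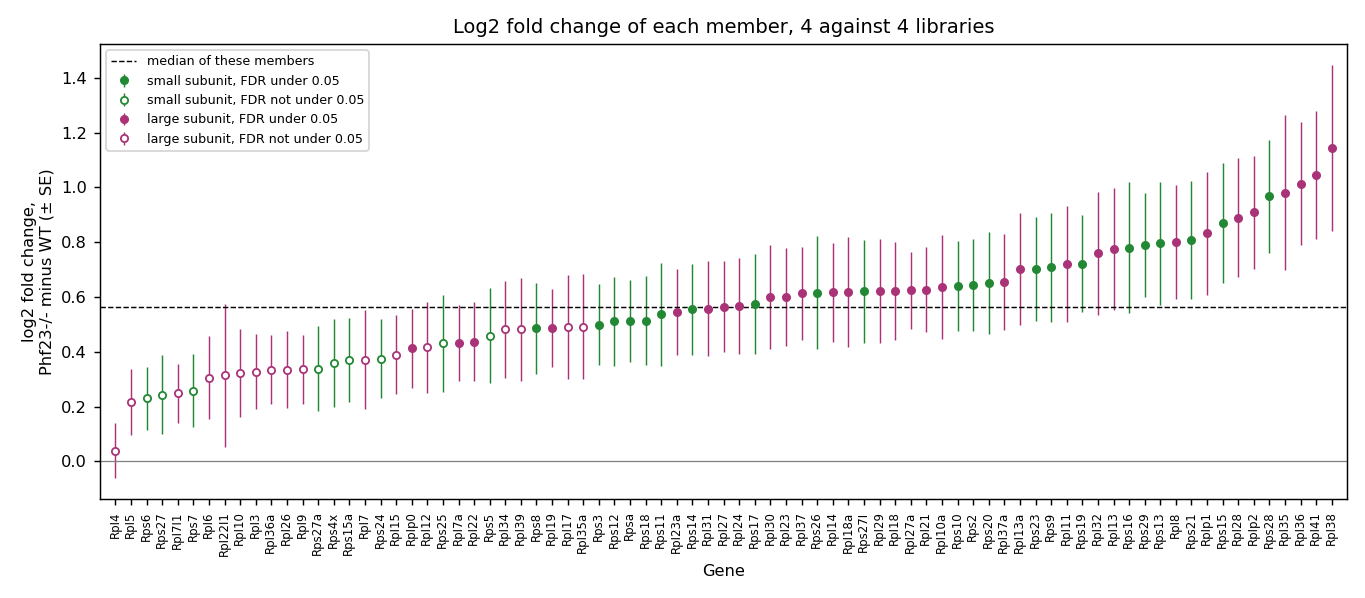
Log2 fold change of each of the 79 members (± SE, 4 against 4 libraries), ordered by size, by subunit, with filled points where the limma-trend FDR was under 0.05; the dashed line is their median of 0.57. All points lie above 0, from Rpl4 at 0.04 to Rpl38 at 1.15.

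The start sites are shown because the family is known for a shared promoter architecture and the members farthest from its shift can be compared by it. RefSeq promoter entries (GRCm38.p6, 250 bases before to 50 after the annotated start) matched 60 of the 80 members. Each line gives 60 bases before the RefSeq start site and 15 from it, read 5′ to 3′ on the gene's strand; capitals mark matches to 3 motifs described after them. The first 4 lines are members above the family, the next 5 are members below it, and the last is a paralog. Of the 10 members farthest from the family, Rpl36 had no matching entry. The RefSeq start lay 493 bases from the annotated gene start of Rpl35, 137 from that of Rpl41, 72 from that of Rpl22l1 and 56 from that of Rpl38, and 0 to 45 from those of the others, so these windows depend on the start chosen.
Rpl41 (chr10:128549154-128549228, minus): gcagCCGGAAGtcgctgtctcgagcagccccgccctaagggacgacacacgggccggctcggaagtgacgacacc
Rpl38 (chr11:114668520-114668594, plus): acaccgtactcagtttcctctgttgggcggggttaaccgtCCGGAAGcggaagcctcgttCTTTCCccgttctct
Rpl35 (chr2:39005117-39005191, minus): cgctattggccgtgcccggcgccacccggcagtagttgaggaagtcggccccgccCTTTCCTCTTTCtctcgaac
Rps28 (chr17:33824548-33824622, minus): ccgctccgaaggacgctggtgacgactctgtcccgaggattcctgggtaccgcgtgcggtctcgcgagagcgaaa
Rpl4 (chr9:64173327-64173401, plus): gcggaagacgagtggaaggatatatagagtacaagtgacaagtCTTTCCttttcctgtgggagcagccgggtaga
Rpl5 (chr5:107900468-107900542, plus): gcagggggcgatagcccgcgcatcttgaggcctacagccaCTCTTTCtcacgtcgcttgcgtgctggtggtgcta
Rps6 (chr4:86857353-86857427, minus): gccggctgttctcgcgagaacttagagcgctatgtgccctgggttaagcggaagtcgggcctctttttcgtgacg
Rps27 (chr3:90213634-90213708, minus): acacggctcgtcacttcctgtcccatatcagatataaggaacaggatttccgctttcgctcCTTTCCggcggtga
Rpl7l1 (chr17:46782642-46782716, minus): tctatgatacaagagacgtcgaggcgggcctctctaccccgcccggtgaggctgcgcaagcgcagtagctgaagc
Rpl22l1 (chr3:28805448-28805522, plus): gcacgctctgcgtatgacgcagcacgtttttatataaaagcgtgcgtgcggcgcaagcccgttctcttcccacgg

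In the whole promoter windows, on both strands, the oligopyrimidine run CTTTCC (on the other strand, GGAAAG) lay in 31 of the 60 members, 51.7%, beside 29.3% of 27025 genes. The run CTCTTTC (on the other strand, GAAAGAG), which can overlap the first, lay in 17, 28.3%, beside 9.28%. The ETS core CCGGAAG (on the other strand, CTTCCGG) lay in 24, 40%, beside 9.93%. The 27025 are all genes with a promoter entry, not only the genes tested here, and a match in any entry of a gene counted. Members with and without each motif had similar median departures: 0.04 and -0.05 for CTTTCC, 0.06 and -0.05 for CTCTTTC, and 0.03 and -0.05 for CCGGAAG. In the printed lines CTTTCC stands in Rpl38 and Rpl35 above the family and in Rpl4 and Rps27 below it. Rps28 above the family, and Rps6 and Rpl7l1 below it, hold none of the 3 motifs in these bases.

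Paralogs of other members were compared with their partners as a percentage of the partner's reads in the same library. These percentages are uncorrected for length and are read only between libraries. Rpl22l1, a copy of Rpl22 whose protein can replace it in the ribosome and which Rpl22 is known to repress, gave 471, 681, 971 and 900 reads in WT and 1137, 1314, 779 and 576 in Phf23-/-. Phf23-/- replicates 1 and 2 were the highest of the 8, and replicates 3 and 4 lay below WT replicates 3 and 4. The log2 fold change was 0.31 ± 0.261 SE, with a 95% interval of -0.25 to 0.88 (limma-trend FDR 0.385), but -0.48 (FDR 0.00323) within replicates 3 and 4. It was -0.0038 with the trend subtracted and -0.82 (FDR 0.00881) with the length slope as a covariate.

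Rpl22 gave 4173, 4167, 4986 and 4645 reads in WT and 7019, 7551, 5423 and 4708 in Phf23-/-, and rose (log2 fold change 0.44 ± 0.143 SE, limma-trend FDR 0.037). Rpl22l1 as a percentage of Rpl22 was 11.3, 16.3, 19.5 and 19.4 in WT and 16.2, 17.4, 14.4 and 12.2 in Phf23-/-. The groups overlapped, with means of 16.6 ± 3.84% and 15.1 ± 2.25% (SD, n = 4). No order of the groups held across the libraries.

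Rps27l, a copy of Rps27 known as a p53 target, gave 3171, 3234, 4284 and 3665 reads in WT and 5751, 8184, 4946 and 3872 in Phf23-/-. It rose by a log2 fold change of 0.62 ± 0.188 SE (limma-trend FDR 0.0276), with Phf23-/- replicate 4 inside the WT range. Rps27 gave 5727, 4689, 5205 and 4319 reads in WT and 5599, 7255, 6465 and 4508 in Phf23-/-, a log2 fold change of 0.24 ± 0.144 SE (limma-trend FDR 0.221). The ratio of Rps27l to Rps27 was 55.4, 69.0, 82.3 and 84.9% in WT and 103, 113, 76.5 and 85.9% in Phf23-/-. It was higher in Phf23-/- replicates 1 and 2 than in any other library, and overlapped between the groups in replicates 3 and 4. Rps27rt, a near copy of Rps27 outside the symbol rule, stood at 60.02 and 59.5 reads in the group means.

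Rpl7l1, a copy of Rpl7 known from pre-ribosomes, had group means of 2235 ± 126 and 2669 ± 343 reads (SD, n = 4; log2 fold change 0.25 ± 0.108 SE, limma-trend FDR 0.0987). It stood at 16.0 ± 1.31% of Rpl7 in WT and 14.9 ± 2.55% in Phf23-/- (SD, n = 4), with overlap. Rpl3l, the copy of Rpl3 known from striated muscle, was close to absent: its recovered reads were 2, 6, 0 and 2 in WT and 1, 0, 3 and 5 in Phf23-/-, 10 and 9 in total, and no fold is given. Rpl3 itself had means of 16922 ± 890 and 21566 ± 4505 reads (SD, n = 4; log2 fold change 0.33 ± 0.137 SE, limma-trend FDR 0.0876).

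**Figure D4:**
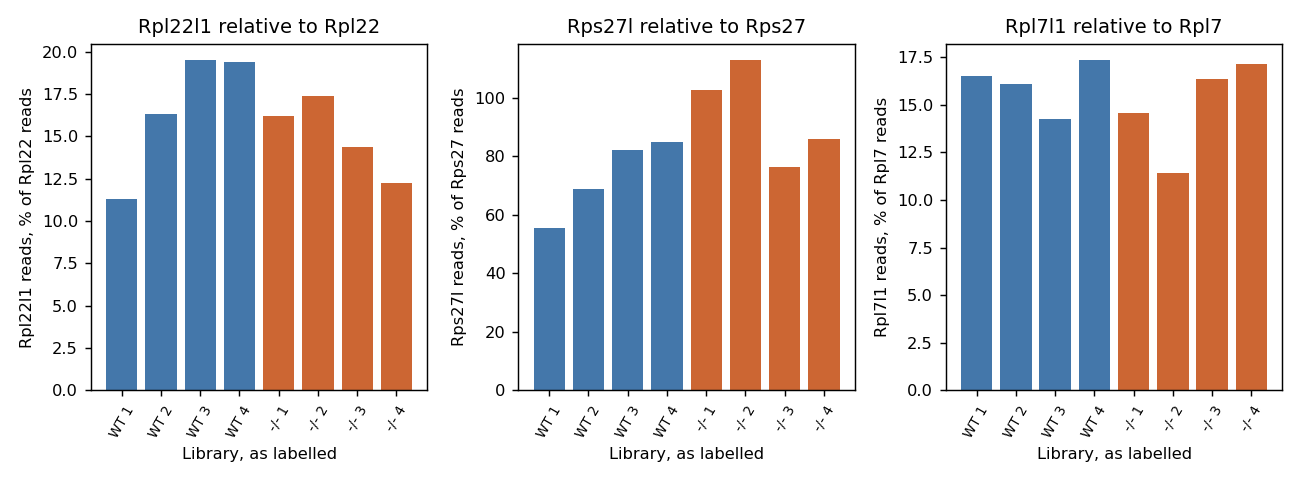
Reads of Rpl22l1, Rps27l and Rpl7l1 as a percentage of the reads of Rpl22, Rps27 and Rpl7 in each library (bars, 1 library each, as labelled). Rps27l was highest relative to Rps27 in Phf23-/- replicates 1 and 2, at 103 and 113%, while Rpl22l1 and Rpl7l1 overlapped between the groups.

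Of the 15 members with listed roles described next, 9 passed the test, beside 53 of the 80 members and 14.8% of all genes. In the acidic stalk, which recruits elongation factors, Rplp1 gave 8049, 7748, 14910 and 13583 reads in WT and 22101, 23547, 17833 and 13698 in Phf23-/-, and rose (log2 fold change 0.83 ± 0.225 SE, limma-trend FDR 0.0178). Its partner Rplp2 gave 3775, 3702, 5110 and 5881 in WT and 11309, 10831, 6753 and 6311 in Phf23-/-, with no overlap (0.91 ± 0.206, limma-trend FDR 0.00997). Their anchor Rplp0 rose by 0.41 ± 0.145 (limma-trend FDR 0.0473) and kept its call in 1 of the 8 sets that leave out a library. Rpl12, at the base of the stalk, was at 0.42 (limma-trend FDR 0.0758).

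Of the large subunit genes with regulatory roles, Rpl11, the partner of Rpl5 at Mdm2, gave 4324, 5284, 7979 and 7652 reads in WT and 12491, 12564, 8646 and 7578 in Phf23-/-. It rose by 0.72 ± 0.211 (limma-trend FDR 0.0242), although Phf23-/- replicate 4 lay inside the WT range. Rpl10, which completes the large subunit, was at 0.32 (limma-trend FDR 0.144), Rpl17, which lines the tunnel, at 0.49 (limma-trend FDR 0.0671) and Rpl39, at the tunnel exit, at 0.48 ± 0.188 (limma-trend FDR 0.0693). Those 3 did not pass the test.

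Among small subunit genes, Rpsa, the protein also known as the laminin receptor, gave 21290, 21893, 26056 and 23252 reads in WT and 36890, 41265, 31410 and 24511 in Phf23-/-. Phf23-/- replicate 4 lay below WT replicate 3. It rose by 0.51 ± 0.15 (limma-trend FDR 0.0238). Rps19, the gene most often mutated in Diamond-Blackfan anaemia, gave 5699, 5783, 7816 and 7912 in WT and 13259, 13884, 10406 and 7886 in Phf23-/-. It rose by 0.72 ± 0.178 (limma-trend FDR 0.0131). Rps2 rose by 0.64 ± 0.169 (limma-trend FDR 0.0161), Rps3 by 0.50 (limma-trend FDR 0.0257) and Rps26 by 0.62 (limma-trend FDR 0.0396). Rps4x, the X-linked gene, was at 0.36 (limma-trend FDR 0.106) and Rps27a, made as a fusion with ubiquitin, at 0.34 (limma-trend FDR 0.117); neither passed.

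Lists of genes around the ribosome, also chosen with earlier results known, were counted in the same fit. Over all genes, 14.8% were called higher and 14.8% lower. Of the ribosomal protein genes whose symbols fall outside the rule, Fau, which encodes a small subunit protein fused to a ubiquitin-like one, was at 0.89 (limma-trend FDR 0.0109) and Rpl36al, a copy of Rpl36a, at 0.43 (limma-trend FDR 0.0234). Rack1, a signalling scaffold on the small subunit, was at 0.32 (limma-trend FDR 0.0915), Rps3a1 at 0.21 (limma-trend FDR 0.251), and neither passed. With the trend subtracted the call of Fau ended (0.13, limma-trend FDR 0.276) and Rpl36al turned to -0.16 (limma-trend FDR 0.298). Of 19 translation factors and other mRNAs with a known oligopyrimidine tract, 6 rose and 1 fell (median 0.28), and 2 and 2 with the trend subtracted (median 0.0034). The 3 of lowest FDR were Eif3f at 0.55 (limma-trend FDR 0.0155), Eif3k at 0.54 (FDR 0.0274) and Eef1d at 0.41 (FDR 0.0364); the trend subtracted ended the calls of Eif3k (0.03, FDR 0.846) and Eef1d (0.26, FDR 0.0715). The gene that fell was Eif4b, by 0.37 on the log2 scale (limma-trend FDR 0.0424). Of 8 noncoding host genes of small nucleolar RNAs, 2 rose and 0 fell (median 0.35), and 0 were called with the trend subtracted (median 0.18). The 2 were Epb41l4aos at 0.91 (limma-trend FDR 0.0209) and Snhg8 at 0.64 (FDR 0.0387), which became 0.11 (FDR 0.647) and 0.27 (FDR 0.213). Zfas1 was at 0.54 (FDR 0.0532).

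Of 32 ribosome biogenesis factors, 7 rose and 7 fell, with a median of -0.03, and 3 rose and 3 fell with the trend subtracted (median 0.04). Heatr1, needed for transcription of ribosomal DNA, fell by 0.51 on the log2 scale (limma-trend FDR 0.0107) and the nucleolar helicase Ddx21 fell by 0.43 (FDR 0.0108), while Eif6, which keeps the subunits apart, rose by 0.73 (FDR 0.0111). With the trend subtracted Heatr1 was at -0.12 (limma-trend FDR 0.346) and Ddx21 at -0.17 (FDR 0.0526), in replicates 3 and 4 they were at -0.28 (FDR 0.128) and -0.23 (FDR 0.171), and Eif6 was at 0.30 (FDR 0.0356) and 0.23 (FDR 0.231). Of 5 measured chaperones of single ribosomal proteins, Pdcd2l rose (0.48, limma-trend FDR 0.0316), Heatr3 fell (-0.32, FDR 0.0337), and the median was 0.29; neither passed with the trend subtracted (0.11, FDR 0.534, and -0.22, FDR 0.0568). Grwd1, a chaperone of Rpl3, was at 0.31 (FDR 0.075). Of 17 regulators around mTORC1, Larp1 and Myc, 4 rose and 2 fell, with a median of -0.07, and as many, not all the same genes, with the trend subtracted. Deptor, an inhibitor of mTOR, fell by 1.40 from 40.1 to 14.7 reads (limma-trend FDR 0.00405), Eif4ebp1 rose by 0.86 (FDR 0.0166) and Rps6kb2 by 0.57 (FDR 0.0137). In replicates 3 and 4 Eif4ebp1 was at 0.16 (FDR 0.601) and Rps6kb2 at 0.31 (FDR 0.157). With the trend subtracted Akt1s1 (limma-trend FDR 0.337) and Rps6kb1 (FDR 0.933) lost their calls. Eif4e (0.30, FDR 0.0414) and Eif4ebp2 (-0.56, FDR 0.00837) gained one.

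Reads can be shared with copies of these genes. In the annotation, 60 of the 80 members have at least 1 pseudogene named after them, and the sources used here do not say how reads that map to several places were counted. The number of named pseudogenes had a rho of -0.13 with the departure over 79 members. Of rows with such names, Rpl10-ps3, Rpl36a-ps1 and Rpl9-ps6 were measured, at group means of 106 and 185, 11.8 and 17.7, and 145 and 185 normalised reads in WT and Phf23-/-, and none was called.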

How the data were processed

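The labels describe polyadenylated RNA of 8 neurosphere libraries, 4 per group. The authors used STAR 2.7.1a, the build mm10, DESeq2 1.38.3, fastp 0.23.4 and FastQC 0.12.1, per the submitters' processing notes, as listed here without role or order. The sources used here do not name the read counter, gene annotation, strand setting or any gene filter. The deposited signal has the form of gene reads divided by 1 size factor per library, as read from its values. Multiplying by the step of each library gave whole reads for 100% of values at a tolerance of 1e-04. Of 15602 rows, 64 repeated ones were dropped, leaving 15538 genes; 0 columns lay outside the series.

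Symbols (15535 genes), transcripts (15531) and gene types (14733 protein-coding) came from GENCODE M21. Length is that of the longest RefSeq-linked transcript where there is one. The members and lists were chosen with earlier results of these data known. The test was limma-trend (limma 3.58.1, R 4.3.3) on log2(value + 1), 4 against 4 libraries, with Benjamini-Hochberg adjustment over all genes; fold changes are on that scale. Departures used the same fit after subtracting each library's median over the 79 members with a mean of at least 10. The trend on length and GC content was a loess curve (span 0.3) over 13265 genes, per library. It was fitted to log2 levels minus each gene's mean over the libraries. Named genes were the 5 highest and 5 lowest departures, paralogs and partners, members with a listed role, and up to 3 genes per list of lowest FDR. Rpl21, Rpl26, Rpl27a, Rpl28, Rps15a, Rps20 and Rps29 were added after their values were seen. So were Akt1s1, Aldh1l1, Eif4b, Eif4e, Eif4ebp2, Fabp7, Gfap, Map2, Mbp, Nes, Olig2, Rack1, Rbfox3, Rps3a1, Rps27rt, Rps6kb1, S100b, Slc1a3, Sox10 and Vim. Alternatives were edgeR 4.0.16 and DESeq2 1.42.0 on recovered reads, TMM or library size scaling, a pseudocount of 0.1, a minimum mean of 10, the replicate block, the length slope as a covariate, replicates 3 and 4 only, and leaving out each library. Functions were tested on simulated data. Counting error is small at these depths beside the spread between libraries. A gene of the lists is not reported here, and the counts of its list are left out.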

Additional observations from a re-analysis of the deposited data

How the results depend on the processing

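Leaving out libraries 1 and 2 of each group, which keeps 4 of the 8, gave non-members of like length a median of 0.15. The members' shift became smaller but kept a positive median, below that one, and 71 of 79 positive values. The number called higher, 53, was 0 with the replicate block, 6 with the length and GC trend subtracted, 0 with the length slope as a covariate, 3 in replicates 3 and 4 only and 7 to 77 when 1 library was left out. The number called lower, 0, was 2, 1 and 1 with the trend subtracted, with the covariate and in replicates 3 and 4. The median, 0.56, was 0.0587, -0.11 and 0.0944 in the same order, and 0.41 to 0.71 with 1 library left out. Scaling by library size gave a median of 0.50 and 48 calls. For the replicate block, library size scaling and single libraries left out, the share of all genes called was not counted. Counts from those fits cannot be set against the whole set of genes. The difference in share, 1.41 points, was 0.197 in replicates 3 and 4. Departures called higher, 1, were 0 with the replicate block, 5 with the trend, 0 with the covariate, 0 in replicates 3 and 4 and 0 to 3 with 1 library left out; those called lower, 1, were 0, 2, 1, 0 and 0 to 2. Same-numbered libraries had correlations of deviations of -0.33, -0.13, -0.19 and -0.28. Libraries 1 and 2 of a group correlated positively with 3 and 4 of the other, up to 0.37 (WT replicate 1 and Phf23-/- replicate 4). The length slopes differ between the same libraries, so this check cannot decide whether the numbers pair them. Over 70 single-gene results, 902 of 1250 alternative values kept direction and call, 235 lost a call, 34 gained one and 79 turned sign. With the trend subtracted, log2 fold changes turned for Rpl10 (-0.15), Rpl22l1 (-0.0038), Rpl3 (-0.0054), Rpl36 (-0.000596), Rpl39 (-0.028), Rpl4 (-0.17), Rps19 (-0.069), Rps27 (-0.48), Rps27a (-0.11), Rps4x (-0.00598), Rps6 (-0.20), Grwd1 (-0.034), Rpl36al (-0.16), Rps3a1 (-0.15), Rps27rt (-0.56) and Rpl26 (-0.26), and departures for Rpl36 (-0.079), Rpl5 (0.15) and Rpl7l1 (0.15). With the covariate they turned for Rpl10 (-0.24), Rpl11 (-0.14), Rpl12 (-0.20), Rpl17 (-0.24), Rpl22 (-0.10), Rpl22l1 (-0.82), Rpl3 (-0.13), Rpl35 (-0.18), Rpl39 (-0.15), Rpl4 (-0.11), Rpl5 (-0.14), Rpl7 (-0.30), Rpl7l1 (-0.073), Rplp0 (-0.093), Rplp1 (-0.047), Rps19 (-0.013), Rps2 (-0.032), Rps26 (-0.23), Rps27a (-0.22), Rps27l (-0.13), Rps3 (-0.0704), Rps4x (-0.16), Rps6 (-0.10), Rpsa (-0.031), Grwd1 (-0.019), Epb41l4aos (-0.037), Snhg8 (-0.11), Zfas1 (-0.24), Eif3k (-0.11), Eef1d (-0.00997), Rpl26 (-0.12), Rps15a (-0.18), Rps20 (-0.0997), Rack1 (-0.16), Rps3a1 (-0.20), Rps27rt (-0.0588) and Rpl28 (-0.0056), and departures for Rpl35 (-0.066), Rpl4 (0.0019), Rpl7l1 (0.043), Rps27 (0.13) and Rps6 (0.016). In replicates 3 and 4 they turned for Rpl12 (-0.047), Rpl22l1 (-0.48), Rpl4 (-0.069), Rpl5 (-0.014), Rpl7 (-0.032), Rps27a (-0.086), Rps3a1 (-0.0348) and Zfas1 (-0.032), and the departure of Rps27 (0.10). Rpl4 also turned with library size scaling (-0.023) and without Phf23-/- replicate 1, in a range of -0.014 to 0.0880 with 1 library left out. Rps27rt, near 0, turned with library size scaling (-0.0574), edgeR (-0.0124) and DESeq2 (-0.0198), in a range of -0.218 to 0.154 with 1 library left out. The cause was not tested.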
